A study of Mus musculus with 12 samples.

Results

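The ribosomal protein genes of sorted dentate gyrus cells were described in 12 RNA-seq libraries of 3 populations. Members were the genes above 0 in at least 4 libraries whose symbol begins with Rpl or Rps (cytosolic ribosome) or with Mrpl or Mrps (mitochondrial ribosome), without the S6 kinases and without symbols marked as pseudogenes. The rule used no measured difference. It matched 94 symbols, of which Mrpl53 was above 0 in too few libraries, and left 93 members of 10749 listed genes. There were 48 cytosolic members (33 of the large and 15 of the small subunit) and 45 mitochondrial members (27 large and 18 small). All 93 lay on the plus strand, as did 10573 of the 10579 listed genes with a position, so they cover 44 of the 85 protein-coding cytosolic symbols and 45 of the 78 mitochondrial symbols in the GRCm38 annotation. The other 4 cytosolic members, Rpl6l, Rps12l1, Rps3a3 and Rps4l, are annotated as processed pseudogenes. Minus-strand members such as Rpl3 or Rps27 were not analysed here.

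The cytosolic ribosome translates nuclear-encoded messages, and its proteins are made in step with each other, since each ribosome takes them in fixed proportion. Their messages begin with a pyrimidine tract at the very first base, through which the mTOR pathway controls their translation. The mitochondrial ribosome is built on mitochondrial ribosomal RNA, translates the few proteins encoded by mitochondrial DNA, and takes all of its proteins from nuclear genes. In neural stem cells, protein synthesis is known to be low at rest and to rise on activation.

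The mice were 8 weeks old and carried LPA1-GFP, a reporter in which regulatory sequence of the lysophosphatidic acid receptor gene Lpar1 drives EGFP, on an FVB/N and Swiss Webster stock rederived into C57BL/6. All groups share this reporter. Stem libraries (n = 4) came from GFP-positive cells that also carried EGFR, a growth factor receptor, together with Prominin-1, a membrane protein used to mark stem cells. Progenitor libraries (n = 4) came from GFP-positive cells that lacked EGFR, Prominin-1 or both, sorted together, and niche libraries (n = 4) from GFP-negative cells. RNA of 1000 sorted cells was amplified for each library. Whether a replicate is 1 animal or a pool is not stated in the labels, and the p-values reflect library-to-library spread, which may be technical.

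Library totals ran from 7597256 to 22854036 reads. These totals were recovered from the deposited values, and the reads of the listed genes summed to 100.021% to 100.04% of them. Nearly all listed genes lie on the plus strand, so most minus-strand genes are missing from the totals. All shares of reads given here are of these totals and not of all sequenced reads. Progenitor replicate 1 and niche replicate 1 stood apart from the other libraries of their group, and results are given with and without them. Reads of globin (Hba-a1 and Hba-a2) made up 2.62% to 33% of all reads in niche libraries, against at most 0.186% in stem and 0.228% in progenitor libraries. Genes encoded by mitochondrial DNA took 9.94% to 11.99% in stem libraries, 9.26% to 14.05% in progenitor libraries and 15.4% to 25.8% in niche libraries. The stem label was checked against marker lists. All 6 tested macrophage markers were higher in stem than in progenitor libraries, with summed levels of 1961 to 7544 RPKM in stem libraries, 116 to 227 RPKM in progenitor libraries and 2624 to 4863 RPKM in niche libraries. RPKM counts reads per kilobase of exon in a library brought to a common size. Of 8 tested neural stem markers, 0 were called higher and 1 lower in stem than in progenitor libraries by limma at an adjusted p below 0.05 (summed levels of 609 to 1200 RPKM in stem libraries, 1144 to 2442 RPKM in progenitor libraries and 614 to 900 RPKM in niche libraries). None of the tested markers of either list was at 0 in every library. Their part in the results below was not tested. In such bulk samples, fewer cells of a type and less RNA per cell cannot be told apart.

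The start of a ribosomal protein gene is where its messages acquire the pyrimidine tract, so the starts of both families were read from the RefSeq promoter table (GRCm38.p6), which held 37 cytosolic and 42 mitochondrial members. At the annotated start, a C followed by at least 4 pyrimidines stood in 6 of the 37 cytosolic members (16.2%: Rpl14, Rpl28, Rpl35a, Rpl38, Rplp2 and Rps21). It stood in 0 of the 42 mitochondrial members and in 448 of 16522 protein-coding genes in all (2.71%). An annotated start can differ from the first base of the message, so these counts do not show which messages lack the tract. Searched on both strands from 250 bases before to 50 after the start, CTTTCC was present in 56.8% of cytosolic and 26.2% of mitochondrial members, against 29.3% of all genes. CCGGAAGT, a sequence that ETS factors can bind, was present in 16.2% of cytosolic and 16.7% of mitochondrial members, against 5.94% of all. AAGATGGC, a sequence that YY1 can bind, was present in 5.41% of cytosolic and 11.9% of mitochondrial members, against 3.64% of all. None of these motifs contains another, and a match describes the letters only.

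The 6 starts below show where CTTTCC and CCGGAAGT lie near the start of single genes. They run from 100 bases before the annotated start to 15 after it, on the plus strand. Shown are the 3 members of each family with the highest mean level among those with CTTTCC (cytosolic) or CCGGAAGT on either strand (mitochondrial) there. Among the tested members searched in this window, 8 cytosolic and 6 mitochondrial ones had such a match. Members on the chromosome of Rps14 were left out of this search. The matched letters are in capitals, and the match in Mrpl52 is to the opposite strand. In Rpl38 the tract begins at the annotated first base. In Rpl4 CTTTCC lies before that base, so the count at the annotated start leaves Rpl4 out.
Rpl38, chr11:114668480-114668594: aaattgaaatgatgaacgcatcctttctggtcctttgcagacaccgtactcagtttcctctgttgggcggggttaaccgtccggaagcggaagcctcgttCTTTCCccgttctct
Rpl4, chr9:64173287-64173401: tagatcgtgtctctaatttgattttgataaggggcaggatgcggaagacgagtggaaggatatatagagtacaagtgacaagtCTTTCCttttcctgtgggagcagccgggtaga
Rps9, chr7:3703941-3704055: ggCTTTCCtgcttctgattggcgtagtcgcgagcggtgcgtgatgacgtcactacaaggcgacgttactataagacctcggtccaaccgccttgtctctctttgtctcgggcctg
Mrpl52, chr14:54426809-54426923: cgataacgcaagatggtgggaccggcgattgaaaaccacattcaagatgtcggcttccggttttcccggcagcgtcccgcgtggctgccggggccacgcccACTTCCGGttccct
Mrpl27, chr11:94653691-94653805: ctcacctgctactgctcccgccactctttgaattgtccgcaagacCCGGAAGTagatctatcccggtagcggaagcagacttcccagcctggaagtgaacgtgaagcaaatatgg
Mrpl51, chr6:125192100-125192214: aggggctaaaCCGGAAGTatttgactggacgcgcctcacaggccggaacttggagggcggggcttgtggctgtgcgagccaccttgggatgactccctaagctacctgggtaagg

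Cytosolic members were among the most abundant messages in every population, and the mitochondrial members lay well below them. Levels are RPKM scaled by TMM (a trimmed mean of ratios between libraries), and log2 levels are of that value plus 1. Over stem libraries the median cytosolic log2 level averaged 9.22 ± 0.26, over progenitor libraries 9.26 ± 0.49 and over niche libraries 9.10 ± 0.50 (SD, n = 4 each). The median mitochondrial log2 level averaged 5.76 ± 0.18 over stem, 5.70 ± 0.42 over progenitor and 5.56 ± 0.31 over niche libraries. The ranges of the 3 populations overlapped for both families, as the plot of levels by library shows. Within a library the cytosolic median exceeded the mitochondrial one by 3.46 ± 0.23 in stem libraries, 3.56 ± 0.12 in progenitor libraries and 3.54 ± 0.23 in niche libraries on the log2 scale. These gaps between the families also overlapped between populations, with ranges of 3.19 to 3.69, 3.39 to 3.69 and 3.22 to 3.76.

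**Figure D1:**
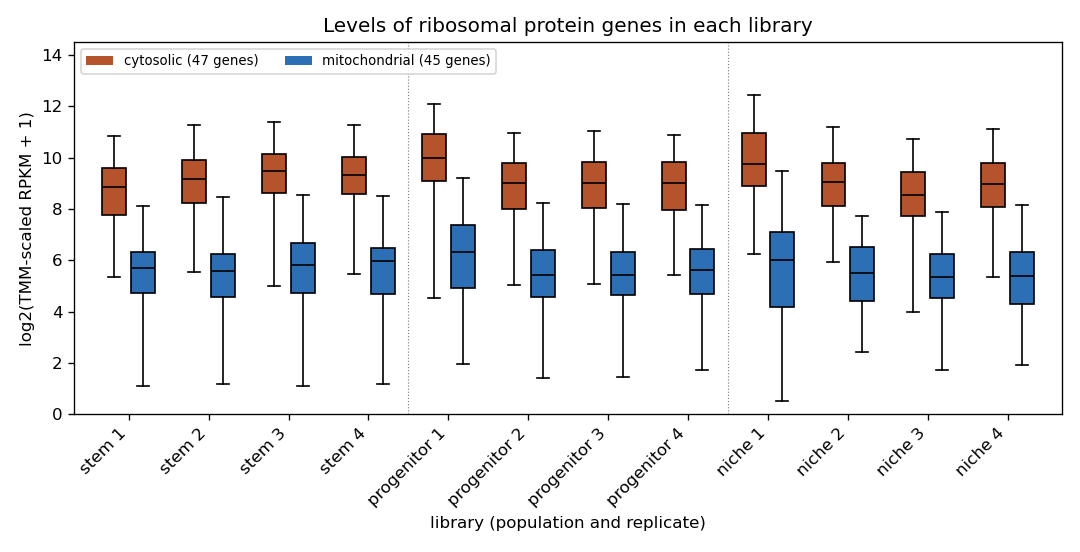
Log2(TMM-scaled RPKM + 1) of the 47 tested cytosolic and 45 tested mitochondrial genes in each library; boxes are quartiles, lines are medians and whiskers reach the lowest and highest gene. Cytosolic medians run from 8.56 (niche 3) to 10.0007 (progenitor 1), and mitochondrial medians from 5.34 (niche 3) to 6.31 (progenitor 1).

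The share of all reads of listed genes in cytosolic members was 4.13% to 5.67% in stem and 4.33% to 6.96% in progenitor libraries. It was 2.68% to 3.14% in niche libraries, so the niche libraries did not overlap the others on this measure. Mitochondrial members took 0.468% to 0.605% in stem and 0.501% to 0.685% in progenitor libraries, against 0.289% to 0.363% in niche libraries. When globin genes and genes encoded by mitochondrial DNA were left out of the total, the cytosolic share was 4.59% to 6.44% in stem libraries, 5.01% to 7.69% in progenitor libraries and 3.67% to 6.01% in niche libraries. On that total the niche range overlapped both others. The mitochondrial share then was 0.526% to 0.687% in stem libraries, 0.584% to 0.756% in progenitor libraries and 0.477% to 0.559% in niche libraries, with an overlap of stem and niche and none of progenitor and niche. Another 73 symbols, marked as pseudogenes of cytosolic members, took 1.64% to 2.32% of all reads in stem libraries. They took 1.71% to 2.805% in progenitor and 1.10% to 1.27% in niche libraries. How reads that match several of these genes were split is not stated, so levels and ranks of single cytosolic members are uncertain.

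Within the cytosolic family, tested members ranged from 50.2 RPKM for Rps4l to 2568 RPKM for Rpl37a in the mean of 12 libraries, and the untested Rpl39l was at 0.644 RPKM. The 5 most abundant were Rpl37a, Rpl36 (2442 RPKM), Rps23 (2335 RPKM), Rpl14 (2050 RPKM) and Rps25 (1855 RPKM), a mix of large and small subunit proteins. Rpl36 (chromosome 17, 56613416 to 56614243) had 1414, 2045, 2389 and 2130 RPKM in stem libraries, 4390, 1996, 2101 and 1900 RPKM in progenitor libraries and 5159, 2353, 1555 and 1874 RPKM in niche libraries. Progenitor 1 and niche 1 were each at more than the level of every other library, and the 10 others overlapped. Rpl37a behaved alike, with 1727, 2479, 2669 and 2462 RPKM in stem, 3978, 1881, 1951 and 1850 RPKM in progenitor and 5582, 2327, 1702 and 2207 RPKM in niche libraries.

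Mitochondrial members ranged from 2.41 RPKM for Mrps26 to 344 RPKM for Mrpl52, a protein of the large subunit. After Mrpl52 came Mrpl28 (251 RPKM), Mrpl23 (231 RPKM), Mrpl36 (210 RPKM) and Mrpl34 (200 RPKM), so the 5 most abundant were all of the large subunit. Large-subunit members had a median of 73.8 RPKM and small-subunit members one of 27.1 RPKM; in the cytosolic family the medians were 548 RPKM for the large and 843 RPKM for the small subunit. Mrpl52 was at 240, 349, 374 and 359 RPKM in stem, 586, 299, 292 and 285 RPKM in progenitor and 718, 172, 171 and 287 RPKM in niche libraries. Here too progenitor 1 and niche 1 were the highest of their groups, and niche 2 and niche 3 were the lowest of all.

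In some libraries most cytosolic genes were the highest or the lowest of their population, while stem 2 and niche 4 were mixed. Progenitor 1 was the highest of the 4 progenitor libraries for 46 of 47 cytosolic members (97.9%) and 39 of 45 mitochondrial members (86.7%), while it was the highest for 42.1% of all tested genes. Niche 1 was the highest niche library for 43 cytosolic members (91.5%) and 28 mitochondrial members (62.2%), against 32.8% of all tested genes. Levels are divided by the TMM factor, which was 0.917 for progenitor 1 and 1.24, 1.249 and 1.242 for progenitor 2, 3 and 4. Unscaled, cytosolic members took 6.96% of reads in progenitor 1, against 4.40%, 4.52% and 4.33%. The factor was 0.419 for niche 1 and 0.82, 0.958 and 0.873 for niche 2, 3 and 4. The median log2 level of all tested genes was 1.60 in niche 1, against 3.20, 3.24 and 3.19. Before that scaling, cytosolic members took 3.10% of reads in niche 1, against 3.04%, 2.68% and 3.14%. Without globin genes and genes encoded by mitochondrial DNA in the total, they took 6.01%, against 4.48%, 3.67% and 4.66%. Niche 3 was the lowest niche library for 45 cytosolic members (95.7%), against 18.4% of all tested genes. In stem, replicate 3 was the highest for 39 and replicate 1 the lowest for 42 of the 47 cytosolic members. Among all tested genes these shares were 26.5% and 22.8%. The mitochondrial genes had no such order in stem: replicate 4 was the highest for 19 and replicate 3 for 17 of 45, and replicate 2 was the lowest for 21. These are 42.2%, 37.8% and 46.7%, against 20.4%, 26.5% and 33.5% of all tested genes.

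**Figure D2:**
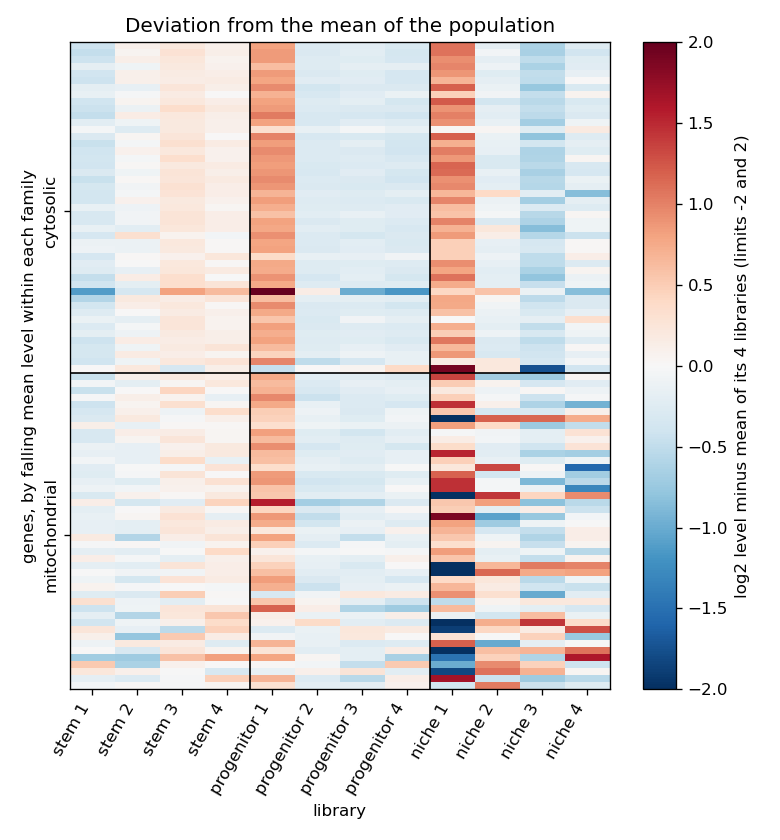
Log2 level of each tested member minus the mean of the 4 libraries of its population, with 1 row per gene by falling mean level and 1 column per library; red is above and blue below that mean. Progenitor 1 is the highest progenitor library for 46 of 47 cytosolic and 39 of 45 mitochondrial genes, while niche 1 is the highest niche library for 43 cytosolic genes and is mixed for the mitochondrial ones.

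The 1 tested cytosolic gene that progenitor 1 did not lead was Rps4l, a transcribed processed pseudogene, which had 22.4, 31.7, 32.7 and 41.6 RPKM in progenitor libraries. In stem libraries it had 40.0, 45.9, 31.0 and 43.0 RPKM, and in niche libraries 199, 60.5, 14.9 and 39.7 RPKM. Its niche libraries therefore spread over the range of all others and beyond it at both ends. Niche 1 was the lowest niche library for 11 mitochondrial members (24.4%), a smaller share than among all genes tested (45.4%). Mrpl22, a large-subunit protein, was at 3.28 RPKM in niche 1, against 79.2, 39.1 and 56.6 RPKM in the other niche libraries. Mrpl27 was at 6.59 RPKM in niche 1, against 146, 142 and 108 RPKM. For both genes niche 1 was the lowest of all 12 libraries.

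The spread of both families over the libraries was set beside that of all genes. The SD of the log2 level over 12 libraries had a median of 0.469 among cytosolic and 0.553 among mitochondrial members, against 0.866 for all genes tested and 0.644 for the 1969 tested genes at 30 RPKM or more. Without progenitor 1 and niche 1, it was 0.244 for cytosolic members, 0.313 for mitochondrial members and 0.677 for all genes tested. Rpl21 was the steadiest cytosolic gene, with 219, 213, 285 and 253 RPKM in stem, 322, 178, 211 and 194 RPKM in progenitor and 226, 202, 197 and 283 RPKM in niche libraries. Rpl13 was the least steady, with 129, 222, 490 and 433 RPKM in stem, 698, 191, 86.3 and 76.2 RPKM in progenitor and 389, 433, 269 and 162 RPKM in niche libraries. The groups overlapped for both genes.

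Stem libraries were compared with progenitor libraries to ask whether the sorted stem cells carried more or fewer ribosomal protein messages than the other GFP-positive cells. By limma, which fits all tested genes together, 0 of 47 cytosolic and 0 of 45 mitochondrial members passed an adjusted p below 0.05, where 7.1% of all 8362 genes tested did. At an unadjusted p below 0.05, the counts were 0 and 0 as well, beside 17.6% of all genes tested, and voom, a variant of limma for reads, also called 0 in each family. The median log2 fold change was -0.04 over cytosolic and -0.10 over mitochondrial members, beside -0.06 over all genes tested. Cytosolic fold changes lay between -0.46 (Rps21) and 0.69 (Rpl13), and mitochondrial ones between -0.65 (Mrpl20) and 0.46 (Mrpl12). The 95% confidence interval lay wholly within a 2-fold change either way for 37 of 47 cytosolic members, 18 of 45 mitochondrial members and 12.3% of all genes tested. For the remaining members the interval reached past a 2-fold change.

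Stem libraries were all below the progenitor libraries for 4 mitochondrial members, Mrpl20, Mrpl27, Mrpl9 and Mrps26, and all above them for Mrpl51. Among all genes tested, 13.2% lay below and 11.5% above in this way, so these counts are no more than the background. Mrpl20 (chromosome 4, 155802878 to 155809975), a large-subunit protein, had 71.0, 68.9, 82.4 and 89.2 RPKM in stem libraries, against 235, 96.3, 103 and 95.5 RPKM in progenitor libraries. The highest stem library was close to the lowest progenitor library. The log2 fold change was -0.65 ± 0.32 (SE, limma adjusted p = 0.325). Mrpl9 varied little in stem, at 26.9, 25.2, 25.4 and 24.8 RPKM, against 62.4, 27.7, 33.7 and 35.0 RPKM in progenitor libraries (log2 fold change -0.55 ± 0.36, limma adjusted p = 0.52). Mrpl9 and Mrpl27 overlap antisense genes, so reads of both strands may be mixed there.

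Without progenitor 1 and niche 1, the median fold change of stem over progenitor was 0.25 in the cytosolic and 0.11 in the mitochondrial family. Rps2 and Rpl8 then passed limma's test, both higher, with log2 fold changes of 0.76 (adjusted p = 0.0347) and 0.52 (adjusted p = 0.0298), where 13.3% of all genes passed. Over all settings their adjusted p ranged over 0.00177 to 0.89 for Rps2 and 0.00267 to 0.904 for Rpl8. Rps2 encodes a small-subunit protein near the message entry channel, and it had 62.9, 78.2, 96.3 and 101 RPKM in stem libraries, against 123, 43.2, 49.0 and 55.9 RPKM in progenitor libraries. Progenitor 1 was above all stem libraries and the 3 others were below all of them. Rps2 overlaps small nucleolar RNA genes and Snhg9, in part on the other strand, so its reads are uncertain.

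**Figure D3:**
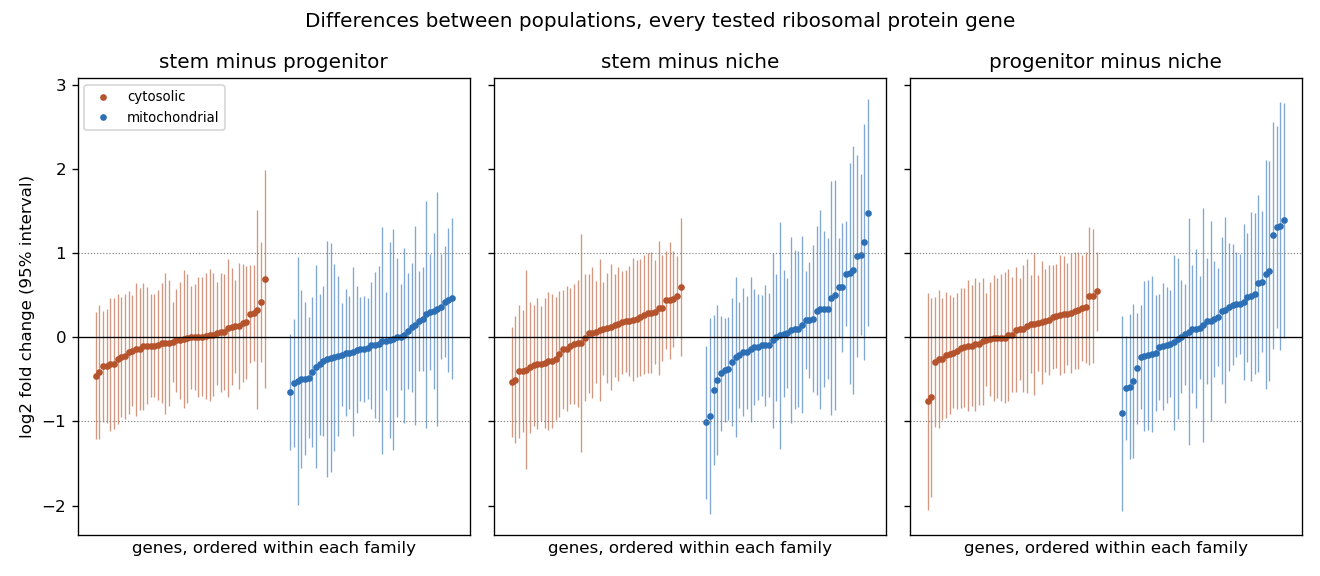
Log2 fold change of every tested member in each comparison, with limma's 95% confidence interval as a line; genes are ordered by fold change within the cytosolic (left, 47) and mitochondrial (right, 45) family, and dotted lines mark a 2-fold change. All cytosolic points lie within the dotted lines; 3 mitochondrial points lie beyond them for stem over niche and 4 for progenitor over niche.

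Stem libraries were compared with niche libraries, the GFP-negative cells of the same tissue. Again 0 of 47 cytosolic and 0 of 45 mitochondrial members passed limma's test, where 21.6% of all genes tested did. At an unadjusted p below 0.05, 1 cytosolic member (Rpl4, higher) and 4 mitochondrial members (Mrpl2, Mrps27 and Mrpl12 higher, Mrps26 lower) were below the threshold, beside 34.9% of all genes tested, and voom called 0 in each family. The median log2 fold change was 0.06 over cytosolic and 0.05 over mitochondrial members, beside 0.09 over all genes tested. No cytosolic and 3 mitochondrial members differed by more than 2-fold, while 38.4% of all genes tested did. The interval lay within a 2-fold change for 28 of 47 cytosolic members, 14 of 45 mitochondrial members and 8.02% of all genes tested.

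Rpl4 encodes a protein that lines the exit tunnel of the large subunit, and its gene lies on chromosome 9 from 64173375 to 64178666. It was at 1154, 997, 1370 and 1274 RPKM in stem, 1548, 1121, 1204 and 1120 RPKM in progenitor and 872, 868, 714 and 959 RPKM in niche libraries. All niche libraries were below all others, and niche 1 did not stand out here. The log2 fold change was 0.49 ± 0.22 for stem over niche (limma adjusted p = 0.132) and 0.54 ± 0.22 for progenitor over niche (adjusted p = 0.13). Rpl4 hosts small nucleolar RNAs in its introns, whose reads could not be told apart from its own.

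Rplp0, whose protein anchors the stalk of the large subunit, had the highest cytosolic fold change of stem over niche. It was at 1418, 1446, 1922 and 1763 RPKM in stem, 2904, 1169, 1238 and 1228 RPKM in progenitor and 2464, 986, 635 and 869 RPKM in niche libraries. The 4 stem libraries were above 3 niche libraries and below niche 1. The log2 fold change was 0.59 ± 0.39 (limma adjusted p = 0.297), and 0.92 (adjusted p = 0.031) without niche 1 alone, where 29.8% of all genes were called; over all settings the adjusted p ranged over 0.000445 to 0.648.

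Mrpl2 encodes a protein at the catalytic core of the mitochondrial large subunit (chromosome 17, 46646229 to 46650139). It was at 65.2, 75.3, 85.1 and 76.2 RPKM in stem, 78.4, 47.5, 52.0 and 59.1 RPKM in progenitor and 62.6, 38.2, 48.4 and 32.5 RPKM in niche libraries. All stem libraries were above all niche libraries, the lowest stem library by little. The log2 fold change was 0.76 ± 0.29 (limma adjusted p = 0.0776), and 0.85 (adjusted p = 0.0134) without niche 1, with a range over all settings of 0.000563 to 0.282.

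Mrps27, a small-subunit protein with RNA-binding repeats (chromosome 13, 99344786 to 99415562), was at 50.5, 49.7, 68.8 and 63.5 RPKM in stem libraries, 66.0, 42.5, 38.2 and 47.6 RPKM in progenitor libraries and 2.24, 32.5, 42.1 and 40.6 RPKM in niche libraries. Stem and niche did not overlap, and niche 1 was far below all others. The log2 fold change of 1.48 ± 0.63 (limma adjusted p = 0.108) was the highest of all members in this comparison with all libraries. Without progenitor 1 and niche 1 it was 0.51 (adjusted p = 0.0539), below those of Mrpl12 (0.98), Rplp0 and Mrpl2. Mrpl12, which in human cells also binds the mitochondrial RNA polymerase, was at 87.5, 103, 101 and 124 RPKM in stem and 60.4, 132, 52.4 and 16.8 RPKM in niche libraries. Niche 2 was above all stem libraries and the 3 others were below them. Without niche 2, Mrpl12 passed limma's test at a log2 fold change of 1.37 (adjusted p = 0.0253), where 20.7% of all genes were called; its adjusted p over all settings ranged over 0.0107 to 0.447.

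Mrps26 went the other way at a very low level, with 1.13, 1.24, 1.16 and 1.28 RPKM in stem, 2.83, 1.67, 1.73 and 2.29 RPKM in progenitor and 2.44, 8.16, 2.29 and 2.73 RPKM in niche libraries. Stem libraries were below all others and close to each other. The log2 fold change of stem over niche was -1.01 ± 0.43 (limma adjusted p = 0.104). Mrps26, Mrps27, Mrpl12 and, below, Mrps7 each overlap an antisense gene, and the counting is not stated to use strand, so their reads are uncertain. Between stem and niche, all libraries were above for Rpl4, Mrpl2 and Mrps27 and below for Mrps26, where 12.3% of all genes tested were above and 10.4% below.

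**Figure D4:**
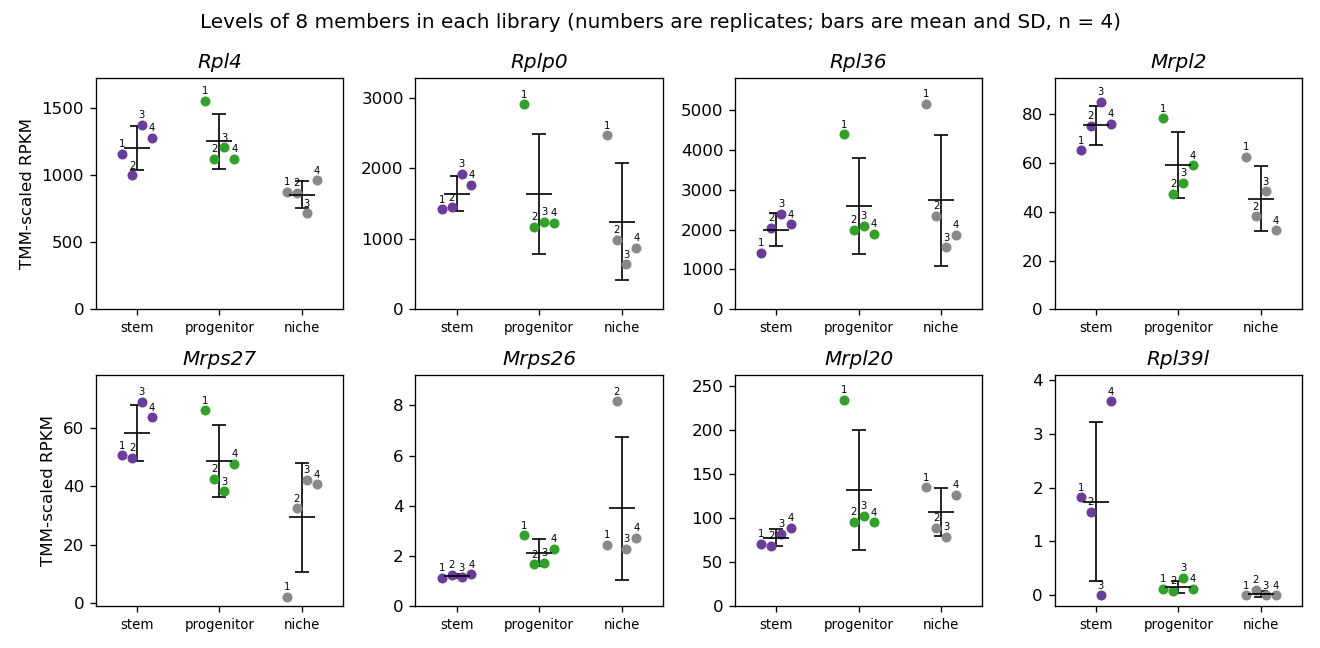
TMM-scaled RPKM of 8 members in stem, progenitor and niche libraries; points are libraries with their replicate number, and bars are mean and SD (n = 4). Niche libraries lie below all others for Rpl4, niche 1 lies far below the rest for Mrps27 at 2.24 RPKM, progenitor 1 stands above its group for Rplp0, Rpl36 and Mrpl20, and Rpl39l is at 3.61 RPKM in stem 4 and at 0 in stem 3.

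Stem and niche libraries were also compared without progenitor 1 and niche 1. The median fold change was then 0.24 in the cytosolic and 0.09 in the mitochondrial family. Among cytosolic members 8 were called higher and 0 lower, among them Rplp0, Rpl8, Rpl14, Rpl4 and Rps27l. Their log2 fold changes ran from 0.41 for Rpl14 to 0.92 for Rplp0. Among mitochondrial members 5 were called higher (Mrpl28, Mrpl2, Mrps17, Mrpl34 and Mrpl52, at 0.60 to 0.85) and 1 lower (Mrps26, at -1.22). In that fit 35.9% of all genes tested were called.

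Progenitor and niche libraries gave 0 called cytosolic and 0 called mitochondrial members by limma, where 11.4% of all genes tested were called. Unadjusted p-values below 0.05 were found for Rpl4 and Mrps5, beside 27% of all genes tested, and voom called 0 in each family. The medians were 0.03 and 0.14, beside 0.15 over all genes tested. Mrps5, a small-subunit protein at the messenger entry site, was at 13.9, 15.5, 20.2 and 19.6 RPKM in progenitor and 0.983, 8.73, 7.22 and 16.9 RPKM in niche libraries. Niche 4 overlapped the progenitor libraries, and the log2 fold change was 1.31 ± 0.56 (limma adjusted p = 0.149). Without progenitor 1 and niche 1 it was 0.70 (adjusted p = 0.183). Rpl4 was the 1 member whose progenitor libraries were all above the niche libraries, as were 8.81% of all genes tested; 0 members were wholly below, as were 6.79% of all. Intervals lay within a 2-fold change for 37 cytosolic and 15 mitochondrial members and for 9.51% of all genes tested. Without progenitor 1 and niche 1, 0 cytosolic members passed, while Mrps17 was higher (0.69, adjusted p = 0.027) and Mrps7 lower (-0.73, adjusted p = 0.023), where 23.9% of all genes did. Over all settings the adjusted p ranged over 0.00328 to 0.65 for Mrps17 and 0.023 to 0.92 for Mrps7.

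Some cytosolic ribosomal proteins have paralogs whose use differs between tissues. Rpl22 was at 94.3, 135, 132 and 124 RPKM in stem, 184, 117, 125 and 121 RPKM in progenitor and 192, 84.0, 80.1 and 93.4 RPKM in niche libraries. Its paralog Rpl22l1 was higher per length in every library, at 500, 627, 780 and 711 RPKM in stem, 1033, 546, 537 and 560 RPKM in progenitor and 847, 703, 465 and 297 RPKM in niche libraries. Neither was called between populations. Rpl22l1 overlaps an antisense gene, and reads shared with pseudogenes may have been split unevenly, so this comparison of the 2 paralogs is uncertain. Rps27l, a p53 target in human cells, was at 216, 370, 357 and 385 RPKM in stem, 456, 259, 258 and 255 RPKM in progenitor and 409, 246, 165 and 195 RPKM in niche libraries.

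Rpl39l, a paralog of Rpl39 known from male germ cells, had few reads outside stem libraries. There were 12, 11, 0 and 33 reads in stem, 1, 1, 5 and 2 reads in progenitor and 0, 1, 0 and 0 reads in niche libraries. Stem 1, 2 and 4 were above all other libraries and stem 3 was at 0. It did not pass the filter on low reads. With no filter, its fold change of stem over niche was 1.23 ± 0.38 (limma adjusted p = 0.0432), and it was the 1 member called, where 15.6% of 10510 genes were. The pseudogene Rpl6l tracked Rpl6 closely (434 and 446 RPKM in stem 1, 869 and 896 RPKM in progenitor 1), and how their near-identical reads were split is uncertain.

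Ribosomal proteins named by other rules were looked at too. Rpsa, Fau and Rack1 of the cytosolic small subunit and Chchd1, Aurkaip1 and Gadd45gip1 of the mitochondrial ribosome were tested. By limma, 0 of these 6 were called in any comparison. Of all genes tested, 7.1% were called for stem over progenitor, 21.6% for stem over niche and 11.4% for progenitor over niche. Beside these shares, 0 of 6 genes says little. Chchd1 came nearest, at 0.78 ± 0.30 for stem over niche (adjusted p = 0.0744) and 0.84 ± 0.30 for progenitor over niche (adjusted p = 0.0827). It overlaps an antisense gene, so its reads are uncertain.

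Genes whose products assemble cytosolic ribosomes were tested beside the members, on lists chosen with earlier results known. Of 36 tested genes of ribosome biogenesis, 7 were called higher and 0 lower in stem than in niche libraries, 0 between stem and progenitor, and 1 higher and 0 lower in progenitor than in niche libraries. Over all genes tested, 10.9% were called higher and 10.7% lower in stem than in niche libraries, and 5.66% higher and 5.76% lower in progenitor than in niche libraries. The list's median log2 fold change of stem over niche was 1.13, beside 0.09 over all genes tested. Nolc1, a nucleolar chaperone of small nucleolar particles, was at 53.5, 40.5, 45.5 and 40.8 RPKM in stem and 3.79, 28.5, 3.66 and 7.30 RPKM in niche libraries (log2 fold change 2.41 ± 0.62, limma adjusted p = 0.0115). The groups did not overlap, with niche 2 the nearest. Nop58, a core protein of box C/D particles, was higher by 1.64 ± 0.45 (adjusted p = 0.0168), Pwp1 by 1.67 ± 0.46 (adjusted p = 0.0172) and Rrp1b by 2.19 ± 0.70 (adjusted p = 0.0349). Markers of other cell types moved in the same comparison. All tested markers of astrocytes (6 of 6), oligodendrocytes (6 of 6), mature neurons (3 of 3), endothelial cells (3 of 3) and red cells (3 of 3) were lower in stem than in niche libraries, as were 4 of 5 of oligodendrocyte precursors and 3 of 4 of mural cells. Summed levels were 557 to 1142 RPKM in stem and 4897 to 6480 RPKM in niche libraries for astrocytes, and 147 to 615 RPKM in stem and 2625 to 5831 RPKM in niche libraries for oligodendrocytes. Mature neuron markers summed to 13.5 to 21.8 RPKM in stem and 122 to 516 RPKM in niche libraries. Other lists were mixed in stem against niche libraries. Of 6 macrophage markers 2 were higher and 2 lower, and of 8 neural stem markers 1 was higher and 2 lower. Of 4 neuroblast markers 1 was higher and 3 lower, and of 4 choroid plexus and ependyma markers 0 were higher and 2 lower. The part of these markers in the result was not tested. Ebna1bp2, a factor of large-subunit assembly, was higher in progenitor than in niche libraries by 2.04 ± 0.51 (adjusted p = 0.0181). Markers moved in that comparison too. Lower in progenitor libraries were those of macrophages (5 of 6), oligodendrocyte precursors (4 of 5) and astrocytes (2 of 6). So were those of red cells, mature neurons and endothelial cells (3 of 3 each). Higher were those of dividing cells (3 of 3), neuroblasts (3 of 4) and neural stem cells (2 of 8). Choroid plexus and ependyma markers were split (2 higher and 2 lower of 4), and 0 of oligodendrocytes or mural cells were called. Their part was not tested.

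RNA polymerase I transcribes the ribosomal RNA genes. Of 8 tested genes for its subunits and factors, 3 were higher and 0 lower in stem than in niche libraries, 2 were higher and 0 lower in progenitor than in niche libraries, and 0 were called between stem and progenitor. Its subunit Polr1e was at 7.53, 5.20, 8.77 and 11.6 RPKM in stem, 7.11, 4.20, 6.24 and 7.62 RPKM in progenitor and 0.697, 1.64, 1.21 and 1.89 RPKM in niche libraries. All niche libraries were below all others, at log2 fold changes of 1.96 ± 0.42 for stem (limma adjusted p = 0.00374) and 1.63 ± 0.42 for progenitor (adjusted p = 0.0213). Polr1b was higher in stem by 1.88 ± 0.58 (adjusted p = 0.0308). Taf1b, a factor that recruits the polymerase, was higher in stem by 1.88 ± 0.62 (adjusted p = 0.0423) and in progenitor by 2.09 ± 0.62 (adjusted p = 0.0405). Polr1e, Taf1b and Rrp1b overlap antisense genes and Nop58 hosts small nucleolar RNAs, so their reads may include those of the partners.

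Among 14 tested translation initiation genes, 2 were higher and 1 lower in stem than in niche libraries, 0 were higher and 1 lower in stem than in progenitor libraries, and 0 were called between progenitor and niche. Between stem and progenitor 3.4% of all genes were called lower. The lower gene was in both cases Eif4a2, an RNA helicase paralog of the initiation factor eIF4A. It was at 67.9, 60.6, 61.8 and 55.7 RPKM in stem, 169, 154, 150 and 133 RPKM in progenitor and 249, 140, 155 and 195 RPKM in niche libraries. All stem libraries were below all others, at -1.28 ± 0.25 against progenitor (limma adjusted p = 0.00537) and -1.54 ± 0.25 against niche (adjusted p = 0.00045). Eif4a2 also hosts small nucleolar RNAs. Eif2s1 and Eif4b were higher in stem than in niche libraries by 1.53 ± 0.47 (adjusted p = 0.0305) and 1.40 ± 0.41 (adjusted p = 0.0249).

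None of 7 tested elongation factors was called in any comparison by limma. Of all genes tested, 7.1% were called for stem over progenitor, 21.6% for stem over niche and 11.4% for progenitor over niche, so a count over 7 genes says little. Of 10 tested genes of mitochondrial translation and ribosome assembly, 1 was higher and 1 lower in stem than in niche libraries, 0 were higher and 1 lower in progenitor than in niche libraries, and 0 were called between stem and progenitor. The higher gene was Fastkd2, which binds mitochondrial ribosomal RNA (2.05 ± 0.65, limma adjusted p = 0.0337). The lower gene overlaps genes on the other strand, so its reads are uncertain, and its values are not reported here. Of 10 tested genes of mTOR and Myc control, Deptor was higher in progenitor than in niche libraries (1.62 ± 0.41, limma adjusted p = 0.0167). Deptor encodes an inhibitor of mTOR and overlaps an antisense gene, so its reads are uncertain. In the other comparisons 0 of these 10 genes were called. The macrophage markers described above also differed between stem and progenitor libraries, and 3 of 3 tested markers of dividing cells were higher in stem than in both others, at 393 to 725 RPKM in sum in stem libraries, 104 to 200 RPKM in progenitor libraries and 5.68 to 15.96 RPKM in niche libraries. Markers of oligodendrocytes (6 of 6), mural cells (4 of 4) and neuroblasts (3 of 4) were lower in stem than in progenitor libraries. So were those of astrocytes (4 of 6), choroid plexus and ependyma (3 of 4) and mature neurons (1 of 3). None of the tested markers of red cells, endothelial cells or oligodendrocyte precursors was called in that comparison. The part of all these markers in these results was not tested.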

How the data were processed

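RNA of sorted cells was sequenced in 12 libraries. The deposited values are on a log2 scale and were read as log2(RPKM + 1); the build was GRCm38 (mm10) per the submitters' processing notes. Neither an aligner nor a counter, nor whether strand was used, is given in the sources used here. With the log undone, 100% of the values above 0 were whole reads within 1e-05 reads, with exon lengths annotated for 1237 genes and found from the values for 9273. Floors of 3 reads cover counting error only.

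RPKM values were rescaled by TMM factors (trimming 30% of ratios and 5% of levels) and tested as log2(RPKM + 1) with limma 3.58.1 in R 4.3.3, with 1 mean per population over all 12 libraries, an intensity trend and robust moderation. Genes needed at least 0.767 CPM in 4 libraries and 15 reads in all. P-values were adjusted by Benjamini-Hochberg over 8362 genes at a threshold of 0.05. Fold changes on this scale understate those of low genes. A count test had been planned; since the deposited values were log2 RPKM, limma was used, and voom on recovered reads was an alternative. The test was run on simulated data with the same spread for every gene and no library standing apart. It therefore does not show how the test behaves on these libraries. The other alternatives changed the pseudocount, filter, scaling, replicate block and libraries.

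The members and gene lists were chosen with earlier results of these data known. Members are named where they were called, had the 3 highest or lowest fold changes of a family, the 5 highest levels or the 3 highest or lowest SDs, were paralogs or are ribosomal proteins named otherwise; up to 4 called genes a list and comparison were named. Other members called only under an alternative were named after their values were seen. Promoter sequences and motifs come from RefSeq (GRCm38.p6). Some results are not reported here.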

Additional observations from a re-analysis of the deposited data

Results flagged for a closer look

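Values were compared within each population of 4 libraries, and a library was marked where its gap to the nearest other exceeded Dixon's critical value. Chance alone marks about 1 in 20 groups, and 28 of 105 groups were marked. The groups reuse the same libraries and are not independent. Since 1 shifted library can mark many genes, these rates cannot be set against each other. Most marks were of 1 library, progenitor replicate 1. Its median cytosolic log2 level was 10.0007, and its reads were 6.96% cytosolic and 0.685% mitochondrial, each above the other 3 progenitor libraries. Among cytosolic genes, progenitor 1 stood above its group for Rpl36 (4390 RPKM), Rps23 (4080 RPKM), Rpl37a (3980 RPKM), Rps25 (3000 RPKM), Rplp0 (2900 RPKM), Rpl14 (2870 RPKM) and Rps21 (1600 RPKM). It did so too for Rpl22l1 (1030 RPKM), Rps27l (456 RPKM), Rpl22 (184 RPKM) and Rps2 (123 RPKM). Among mitochondrial genes it stood above its group for Mrpl52 (586 RPKM), Mrpl28 (392 RPKM), Mrpl20 (234 RPKM), Mrpl30 (173 RPKM) and Mrpl22 (112 RPKM).

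After TMM scaling, niche replicate 1 stood above the other niche libraries for Rpl37a (5580 RPKM), Rps23 (4630 RPKM), Rps25 (3530 RPKM) and Rpl22 (192 RPKM). Its globin share was 33% of reads, the highest of all libraries. Stem replicate 1 stood below the other stem libraries for Rps25 (1320 RPKM) and Rps27l (216 RPKM). Mrps26 stood out in niche replicate 2 at 8.16 RPKM, above the 3 others. Rpl39l was marked in progenitor replicate 3 (0.327 RPKM) and niche replicate 2 (0.103 RPKM), which rest on 5 reads and 1 read.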

How the results depend on the processing

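With all libraries and TMM scaling, 0 members of either family were called, and this held with pseudocounts of 0.1 and 4 RPKM, median ratio size factors, voom, a fit of only the 2 populations compared, and the replicate block. Same-numbered libraries did not deviate together throughout (correlations of deviations from -0.128 to 0.206), so the numbers were not taken as pairs; the replicate block called 607, 1814 and 949 genes in all for stem over progenitor, stem over niche and progenitor over niche, against 594, 1806 and 955 without it. The fit of only 2 populations called 1418 genes for stem over progenitor and 528 for progenitor over niche.

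Scaling mattered most. By library size alone, 33 cytosolic and 11 mitochondrial members were higher in stem than in niche (2603 of all genes called in either direction; medians 0.757 and 0.727, all genes 0.576), and 35 and 11 in progenitor than in niche (1839 of all genes called in either direction; medians 0.686 and 0.744, all genes 0.623). This scaling moved the median of all genes upward, and members near 0 changed sign with it. Among the members named by rule and called under it these were Rpl37a (0.496), Rps25 (0.551) and Rpl10 (0.62) for stem over niche, and Rps21 (0.604), Rpl38 (0.573), Rpl36 (0.651), Rps23 (0.556), Rpl14 (0.636) and Rpl10 (0.649) for progenitor over niche.

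With no filter, 1 cytosolic member was called for stem over niche. A further 2 settings were chosen after seeing the data. Without progenitor 1 and niche 1, the calls were 2 cytosolic for stem over progenitor (medians 0.246 and 0.112), 8 and 6 for stem over niche, and 2 mitochondrial for progenitor over niche (1116, 3005 and 2000 of all genes). Library weights gave 8 and 6 for stem over progenitor (medians 0.231 and 0.134), and 2 and 3 for stem over niche (2823 and 2338 of all genes). All members called with library weights were higher in stem. Without progenitor 1 and niche 1, Mrps26 was called lower in stem than in niche libraries (-1.22).

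Leaving out 1 library in turn called 0 to 1 cytosolic and 0 to 3 mitochondrial members for stem over niche, 0 and 0 to 1 for progenitor over niche, and 0 for stem over progenitor, and of all genes 1282 to 2495, 544 to 1647 and 363 to 1093. The medians ranged, cytosolic then mitochondrial, from -0.123 to 0.246 and -0.207 to 0.112 (stem over progenitor, highest without progenitor 1), -0.193 to 0.243 and -0.16 to 0.16 (stem over niche) and -0.293 to 0.227 and -0.163 to 0.261 (progenitor over niche). The cause of these shifts was not tested. For most mitochondrial members, intervals wider than a 2-fold change limit what could be detected.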
